A study of Mus musculus with 6 samples.

Results

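The integrins and laminins were the genes whose symbol is Itga or Itgb, or Lama, Lamb or Lamc, followed by the subunit's name, in either of 2 tables of bulk RNA-seq counts. By name alone, this rule took 36 of the 16279 genes in the tables, 25 integrin and 11 laminin genes. A table lists a gene only with at least 10 counts over its 3 libraries, and the rule was chosen with earlier results of these data known. Itgb1bp1, Itgb1bp2 and Itgb3bp, which code for proteins that bind integrin tails, were left out by name. Itgbl1, which is no receptor subunit either, matched the rule and was kept. Of the 36 genes, 24 were listed in both tables and 12 in the CPCC table only.

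The tables held 3 libraries of mouse embryonic stem cells (mESCs, S01 to S03) and 3 of cardiac precursor cell cultures (CPCCs, S04 to S06). Both cell types were male F1 hybrids of a C57BL/6J mother (C57BL/6 in the labels) and a CAST/EiJ father, and the mESCs were 3 clones, each grown from a single cell of a line from another blastocyst. The mESCs were grown without feeder cells on gelatin, in medium with serum, LIF and 2 kinase inhibitors (2i). The CPCCs were made from the same clones through embryoid bodies and were dissociated, passaged on gelatin in serum medium with EGF and FGF2, and used after 3 passages, so each CPCC library was a mixed culture and not a sorted cell type. The columns carry no clone or replicate number, so p-values measure only the spread between these libraries. The mESC libraries held 6442639 to 6907330 counts and the CPCC libraries 8468819 to 11436062, the highest being S04.

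Integrins are receptors on the cell surface made of 1 alpha and 1 beta subunit, and each pairing has its own set of ligands. Laminins are secreted trimers of 1 alpha, 1 beta and 1 gamma chain that form the network of the basement membrane, the sheet of matrix under epithelia and around muscle cells. Embryonic stem cells are known to hold on to laminin through the integrin alpha6beta1, and mesenchymal cells to fibronectin and collagen through other partners of the beta1 subunit.

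The integrin alpha genes share a short stretch just inside the membrane that holds the alpha and the beta tail together. It begins with a glycine and a pair of phenylalanines, and these 3 residues were found in all 16 alpha genes listed. Lysine and arginine followed them in 12. The 15 bases that encode the stretch are in capitals below, followed by the next 15 coding bases, for the alpha subunits that the results turn on.
Itga3: GGCTTCTTCAAGCGAgcccgcactcgtgcc
Itga5: GGCTTCTTCAAACGTtccctcccctacggc
Itga6: GGATTCTTTAAGCGCtctaggtacgatgac
Itga7: GGATTCTTCAAGCGGgcgaagcaccccgag
Itgav: GGCTTTTTCAAACGTgtccgaccacctcaa
Itgae: GGCTTTTTCAAAAGAaaatatcaacaactg
The windows are, on GRCm38, chr11:95046558-95046587 (Itga3, minus strand), chr15:103345320-103345349 (Itga5, minus strand), chr2:71855857-71855886 (Itga6, plus strand), chr10:128957624-128957653 (Itga7, plus strand), chr2:83803243-83803272 (Itgav, plus strand), chr11:73147054-73147083 (Itgae, plus strand), and each lies in 1 coding exon. In these 15 bases Itgav differed from Itga5 at 1 position, Itga3 at 2, Itga7 and Itgae at 3 and Itga6 at 4. For Itga3, Itgal and Itgam the stretch was read from a transcript other than the one with the longest coding sequence, in which it was not found.

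Across all genes tested, 31.7% were called higher in CPCCs and 29.7% lower, 61.4% in all, by edgeR's quasi-likelihood test at a Benjamini-Hochberg adjusted p under 0.05. A call in either direction was thus common, and counts of members are to be read against these shares. Of the 36 integrin and laminin genes, 23 passed the filter on low counts, of which 15 were higher in CPCCs, 2 were lower and 6 were not called. Of 16 integrin genes tested 11 were higher and 1 was lower, and of 7 laminin genes 4 were higher and 1 was lower. Without S04, which stood apart in several values below, 11 integrin genes were higher and 2 lower of 15 tested, and the laminin counts were 4 and 1. The median log2 fold change was 3.08 over the integrin genes tested and 0.59 over the laminin genes, beside 0.03 over all genes tested. A gene passed the filter more easily when it was high in 1 cell type, so these counts do not stand for all members. In 15 of the 23 genes every CPCC library lay above every mESC library, which 35.3% of all genes tested did, and in 4 every CPCC library lay below, which 34.5% did.

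**Figure D1:**
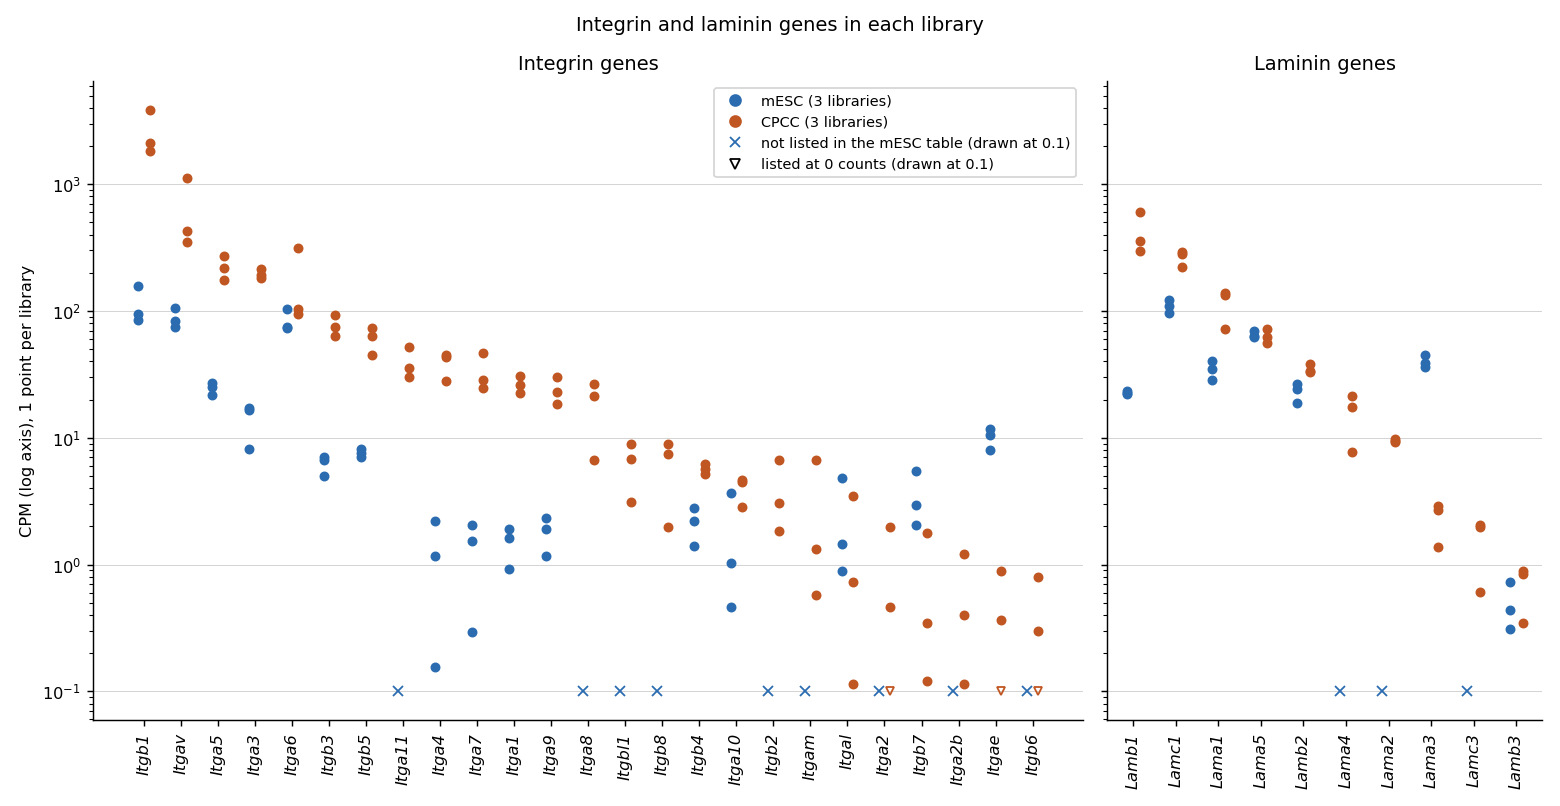
CPM (counts per 1000000 counts, log axis) of 35 of the genes in each of the 3 mESC and 3 CPCC libraries, integrins left and laminins right, ordered by their CPCC mean; crosses mark genes that the mESC table does not list and open triangles counts of 0, both drawn at 0.1. Itgb1 stood at 84.7 to 157 CPM in mESCs and at 1824 to 3840 in CPCCs, while Lama3 fell from 36.1 to 45 CPM to between 1.38 and 2.91.

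The cultures differed in much else. Summed CPM of 8 pluripotency markers was 4851 to 5219 in mESCs and 160 to 397 in CPCCs, and all 8 were listed in both tables. Markers of mesenchymal and smooth muscle cells, 9 of 9 listed in CPCCs and 2 in mESCs, summed to 1.03 to 1.85 CPM in mESCs and 11727 to 18032 in CPCCs. Cardiac precursor markers, 7 of 8 listed in CPCCs, summed to 3.97 to 4.68 and 44.9 to 156 CPM, with S04 the highest, and Tbx5 was not listed in CPCCs. The largest part of the CPCC sum was Tnnt2, at 103, 24.0 and 28.3 CPM in S04 to S06, which was called higher. Gata4 and Isl1 were not called. Mef2c, Myh6, Hand2 and Nkx2-5 were listed in CPCCs only, Nkx2-5 at 1.59, 0 and 0.92 CPM. In bulk RNA, fewer cells of a type and less RNA per cell cannot be told apart. The part of these differences in the integrin and laminin values was not tested.

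Itgb1 codes for beta1, the subunit that pairs with more alpha subunits than any other and is part of most laminin, collagen and fibronectin receptors. It stood at 94.5, 84.7 and 157 CPM in mESCs, in the order S01 to S03 that all values follow, and at 3840, 2122 and 1824 CPM in CPCCs, in the order S04 to S06. The groups were far apart, with the highest CPCC value in S04 and the highest mESC value in S03. The log2 fold change of Itgb1 was 4.53 (SE 0.37, adjusted p = 1.41e-05, edgeR), a 23.1-fold rise. Its rise held without each library in turn, at 4.15 to 4.86.

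Itgb1 lies on chromosome 8 and Lamb1, the laminin gene with the largest tested rise, on chromosome 12. The 250 bases before their annotated starts are shown because Itgb1 had the highest level per kb of the receptor genes in CPCCs and Lamb1 the largest tested rise of the ligand genes, with 3 motifs in capitals that were searched on both strands: GGGCGG (GC box), GGAATG (TEAD factors) and TGANTCA (AP-1 factors). The core promoter box TATAAA was searched as well. The sequences are from RefSeq, GRCm38.p6, at chr8:128685404-128685653 and chr12:31265043-31265292, both on the plus strand.
Itgb1: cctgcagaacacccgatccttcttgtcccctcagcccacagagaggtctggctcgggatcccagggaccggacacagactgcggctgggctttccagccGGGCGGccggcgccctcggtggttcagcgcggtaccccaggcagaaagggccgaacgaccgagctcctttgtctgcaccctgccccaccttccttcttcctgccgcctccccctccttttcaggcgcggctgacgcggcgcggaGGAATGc
Lamb1: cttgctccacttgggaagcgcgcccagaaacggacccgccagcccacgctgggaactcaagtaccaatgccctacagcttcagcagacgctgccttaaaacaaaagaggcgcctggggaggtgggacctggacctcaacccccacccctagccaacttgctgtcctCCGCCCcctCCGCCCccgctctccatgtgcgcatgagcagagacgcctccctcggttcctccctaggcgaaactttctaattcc
The Itgb1 window held 1 GC box and 1 TEAD motif, and the Lamb1 window 2 GC boxes, shown on the other strand as CCGCCC. A GC box was found in 32.7% of all 32851 windows of this length in the table and in 38.5% of the 26 windows of the 23 member genes with an entry. The TEAD motif was found in 12.6% of all windows and in 3 of the 26, those of Itga10, Itgb1 and Lamb3. Neither the AP-1 motif nor TATAAA was found in the members' windows, against 6.75% and 12.4% of all windows. A match is a description of these letters only.

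The class of laminin-binding alpha subunits was taken as Itga3, Itga6 and Itga7, and these did not move alike. Itga6, which pairs with beta1 and beta4, stood at 75.2, 73.7 and 104 CPM in mESCs and at 311, 95.4 and 105 CPM in CPCCs. Only S04 stood apart, at 3.11 times the mean of S05 and S06, and the groups overlapped. The log2 fold change of Itga6 was 1.01 (SE 0.42, adjusted p = 0.06, edgeR) and was not called. It was called by DESeq2 (adjusted p = 0.031), under a filter of 10 counts in every library (0.045), without S05 (0.029) and without S06 (0.027), and without S04 it came to 0.26 (adjusted p = 0.24).

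Itga3, known from skin, kidney and lung epithelia, stood at 8.19, 17.2 and 16.7 CPM in mESCs and at 181, 213 and 193 CPM in CPCCs. The CPCC libraries were close to each other and all far above, with a log2 fold change of 3.80 (SE 0.29, adjusted p = 9.79e-06, edgeR). Itga7, the laminin receptor of skeletal, cardiac and smooth muscle, stood at 1.54, 2.06 and 0.29 CPM in mESCs and at 46.6, 28.6 and 24.9 CPM in CPCCs, a log2 rise of 4.67 (SE 0.53, adjusted p = 8.61e-05). Per kb of coding length, Itga6 made up 84.4% of the summed level of the 3 laminin-binding alpha genes in mESCs (79.0 to 88.4%) and 39.3% in CPCCs (28.1 to 57.6%). Itga3 went from 14.2% (9.83 to 18.9%) to 52.9% (34.1 to 63.9%), and Itga7 from 1.36% to 7.88%. In S04 Itga6 was still the first of the 3, and in S05 and S06 Itga3 was.

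Itgb4, the beta subunit of hemidesmosomes that pairs with alpha6 alone, stayed low. Its levels were 1.39 to 2.79 CPM in mESCs and 5.21 to 6.19 in CPCCs, with no overlap. It was called higher at a log2 fold change of 1.41 (SE 0.45, adjusted p = 0.023, edgeR), but not without S01, S03, S05 or S06, when adjusted p was 0.052 to 0.076. Epithelial markers, 4 of 6 listed in mESCs and 5 in CPCCs, summed to 459 to 701 CPM in mESCs and 580 to 1020 in CPCCs, and Krt5 was in neither table. The members of that sum went apart: Krt8 and Krt18 were called higher (log2 fold change 5.91 and 6.63), Cdh1 was called lower (-2.35), Epcam was not called (-0.92, adjusted p = 0.09, edgeR) and Krt14 was listed in CPCCs only. Their part in the Itgb4 value was not tested.

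The alpha subunits that bind the RGD sequence of fibronectin and vitronectin were 4 genes, and both that could be tested rose. Itgav, the alphaV subunit, stood at 83.7, 74.7 and 106 CPM in mESCs and at 1115, 425 and 351 CPM in CPCCs, a log2 rise of 2.84 (SE 0.42, adjusted p = 0.00041, edgeR). All CPCC libraries were above all mESC libraries, S04 at 2.87 times the mean of the other two, and without S04 the log2 rise of Itgav was 2.15. Itga5, which pairs with beta1 as the classical fibronectin receptor, stood at 21.8, 25 and 27.1 CPM in mESCs and at 270, 218 and 176 CPM in CPCCs. Its log2 rise was 3.17 (SE 0.21, adjusted p = 5.84e-06), with a narrower spread in both groups than Itgav. Itga8, a subunit of mesenchymal and smooth muscle cells, was listed in CPCCs only, at 26.7, 21.5 and 6.65 CPM, which is at least 40.8-fold higher than a floor of 3 counts per mESC library. S06 was well below the other two. Itga2b, the platelet subunit alphaIIb, was listed in CPCCs only and stood near the floor, at 0.11 to 1.21 CPM.

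Besides beta1, 4 listed genes code for beta partners of alphaV. Itgb3 stood at 6.64, 7.06 and 4.97 CPM in mESCs and at 63.9, 93.5 and 74.1 CPM in CPCCs, a log2 rise of 3.63 (SE 0.25, adjusted p = 6.08e-06, edgeR). Itgb5, a vitronectin receptor subunit, stood at 7.11, 8.09 and 7.61 CPM in mESCs and at 63.1, 73.8 and 44.7 CPM in CPCCs, a log2 rise of 2.99 (SE 0.25, adjusted p = 1.75e-05). For both genes the CPCC libraries were all above the mESC libraries. Itgb8, whose pairing with alphaV activates latent TGF-beta, was listed in CPCCs only, at 1.99, 8.85 and 7.45 CPM, at least 13.6-fold above the mESC floor. S04 was low for Itgb8 where it was high for Itgav. Itgb6, an epithelial subunit, was listed in CPCCs only at 0 to 0.80 CPM, around the floor of 3 counts, and no fold is given.

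Of the collagen-binding subunits, which all pair with beta1, 1 of the 2 genes tested rose. Itga1, which prefers the collagen IV of basement membranes, stood at 0.93, 1.62 and 1.90 CPM in mESCs and at 30.7, 26.1 and 22.6 CPM in CPCCs, a log2 rise of 4.14 (SE 0.35, adjusted p = 1.70e-05, edgeR). Itga11, a fibroblast receptor for fibrillar collagen, was listed in CPCCs only, at 51.8, 35.5 and 30.4 CPM, at least 87.6-fold above the mESC floor. Per kb of coding length it was the highest in CPCCs of the 12 members that the mESC table does not list. Itga10, a cartilage subunit, stood at 0.46 to 3.68 CPM in mESCs and 2.87 to 4.67 in CPCCs and was not called (log2 fold change 1.21, SE 0.71, adjusted p = 0.17), while without S02 the log2 fold change was 2.41 (adjusted p = 0.024). Itga2, of platelets and epithelia, was listed in CPCCs only, at 1.99, 0 and 0.46 CPM.

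Itga4 and Itga9, which form their own branch of the family and bind VCAM1, fibronectin or osteopontin, both rose. Itga4 stood at 0.15, 1.18 and 2.19 CPM in mESCs and at 44.6, 43.4 and 27.8 CPM in CPCCs, a log2 rise of 5.01 (SE 0.55, adjusted p = 7.42e-05, edgeR). That was the largest log2 rise of the members tested with all libraries in. Without S03 the rise of Itga4 was 5.81. Without S01 it was below that of Itga7, which was 4.81. Without S02 it was below that of Itga7 as well, at 5.01 against 5.18. Itga9 stood at 2.32, 1.18 and 1.90 CPM in mESCs and at 18.5, 30 and 23.0 CPM in CPCCs, a log2 rise of 3.72 (SE 0.37, adjusted p = 4.16e-05).

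Of the leukocyte subunits, 3 were tested and 1 was called, which was lower in CPCCs. Itgae, the alphaE subunit whose ligand on epithelia is E-cadherin, stood at 11.7, 10.4 and 8.04 CPM in mESCs and at 0.89, 0.36 and 0 CPM in CPCCs. All CPCC libraries were at or near the floor, and the log2 fold change was -4.49 (SE 0.75, adjusted p = 0.00082, edgeR), or -5.69 without S04. Itgae was the only integrin gene that this test called lower. Itgb7, the partner of alphaE, stood at 2.94, 5.44 and 2.05 CPM in mESCs and at 1.79, 0.12 and 0.34 CPM in CPCCs. The CPCC libraries were all below, but at a log2 fold change of -2.14 (SE 0.86, adjusted p = 0.055) Itgb7 was not called. It was called without S04 (-3.78, adjusted p = 0.0037) and under 4 other settings, at adjusted p of 0.037 to 0.0497. Itgal, the alphaL subunit, stood at 0.88 to 4.79 CPM in mESCs and 0.11 to 3.48 in CPCCs, and was not called (log2 fold change -0.69, SE 1.02, adjusted p = 0.58).

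Itgam and Itgb2, the subunits of a receptor of macrophages and neutrophils, were listed in CPCCs only. Itgam stood at 6.66, 1.33 and 0.57 CPM, at least 6.38-fold above the mESC floor, and Itgb2 at 6.66, 3.03 and 1.83 CPM, at least 8.58-fold above it. S04 was the highest for both, and without it the bounds were 2.13-fold for Itgam and 5.43-fold for Itgb2. Ptprc, the pan-leukocyte gene CD45, was listed in CPCCs only, at 15.6, 2.79 and 0.34 CPM, in the same order. Of 8 endothelial and blood markers 6 were listed in CPCCs and 2 in mESCs, Tie1 and Gata1 were in neither, and the sum was 92.3 to 101 CPM in mESCs and 15.1 to 44.9 in CPCCs. Most of the mESC sum was Pecam1 (mean 91.1 CPM, against 4.44 in CPCCs), while Cdh5, Kdr, Emcn and Ptprc were listed in CPCCs only and Tek was not called. The part of leukocytes in the cultures was not tested. Itgbl1, a secreted protein with beta-like repeats and no receptor subunit, was listed in CPCCs only at 6.76, 8.97 and 3.09 CPM, at least 14.0-fold above the floor.

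**Figure D2:**
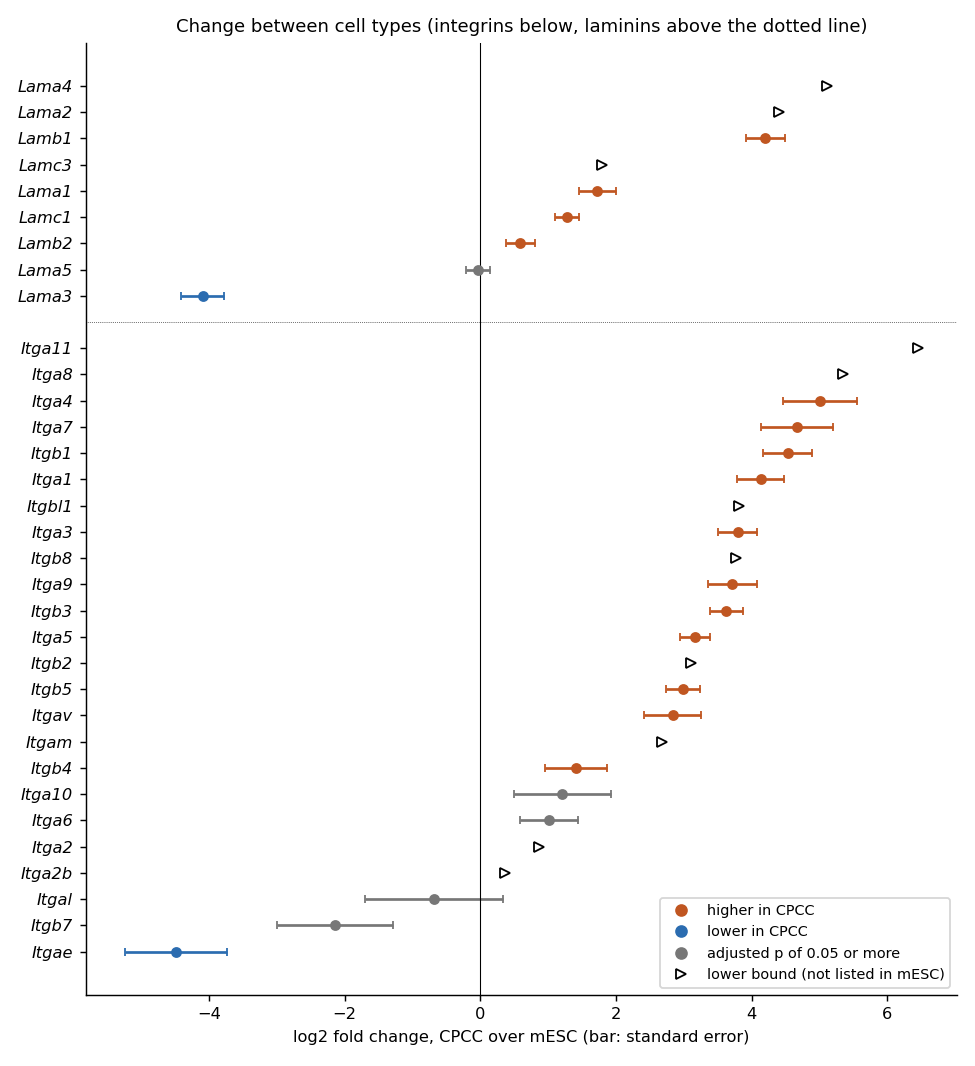
Log2 fold change of CPCCs over mESCs for 22 of the tested genes (circles, bars are the standard error) and lower bounds for genes that the mESC table does not list (open triangles), integrins below and laminins above the dotted line. Itga4 had the largest tested rise at 5.01 with all libraries in, while that of Itga7 was larger without S01 or without S02. Itgae at -4.49 and Lama3 at -4.10 were the 2 genes called lower.

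On the ligand side the alpha chains, which carry the sites that integrins bind, went in different directions. Lama1, the alpha1 chain of the first embryonic basement membranes, stood at 40.3, 35.0 and 28.5 CPM in mESCs and at 71.7, 134 and 138 CPM in CPCCs. S04 was the lowest CPCC library and still above all mESC libraries, and the log2 rise was 1.73 (SE 0.28, adjusted p = 0.00063, edgeR). Lama3, the alpha3 chain of epithelial anchoring laminin, stood at 36.1, 39.0 and 45 CPM in mESCs and at 2.68, 2.91 and 1.38 CPM in CPCCs. The gap was 17.1-fold, a log2 fall of -4.10 (SE 0.32, adjusted p = 1.18e-05), and it held without each library in turn.

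Lama5, the alpha5 chain that is the most widespread in adult basement membranes and a strong ligand of alpha6beta1, stood at 62.4, 63.3 and 69.3 CPM in mESCs and at 72.6, 56.0 and 61.9 CPM in CPCCs. The groups overlapped, and the log2 fold change of -0.03 (SE 0.17, adjusted p = 0.88, edgeR) was not called. Its sign turned with 1 library left out (0.02 without S03, 0.05 without S05) and with a filter of 10 counts in every library (0.04). Lama4 and Lama2, chains of vessel wall and of muscle, were listed in CPCCs only. Lama4 stood at 7.65, 21.5 and 17.4 CPM, with S04 the lowest, at least 34.6-fold above the mESC floor. Lama2 stood at 9.24, 9.70 and 9.40 CPM, with the smallest spread for its mean among the 12 genes listed in CPCCs only, at least 21.1-fold above it.

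Of the beta chains Lamb1 changed the most. Lamb1, the beta1 chain of most embryonic laminins, stood at 22.2, 22.4 and 23.3 CPM in mESCs and at 599, 354 and 296 CPM in CPCCs, a log2 rise of 4.20 (SE 0.29, adjusted p = 6.16e-06, edgeR). Lamb2, the beta2 chain known from kidney and the neuromuscular junction, stood at 24.1, 26.8 and 18.9 CPM in mESCs and at 33.9, 38.3 and 32.9 CPM in CPCCs. The groups did not overlap, and the log2 rise of 0.59 (SE 0.21, adjusted p = 0.038) was called. The call of Lamb2 was lost without S01, S03, S05 or S06 (adjusted p 0.053 to 0.117), and with genes of either table tested and missing genes set to 3 counts (adjusted p = 0.0545). Lamb3, the beta partner of alpha3 in epithelial laminin, was at 0.31 to 0.89 CPM in the 6 libraries and was removed by the filter.

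Lamc1, the gamma1 chain of nearly all laminins outside epithelia, stood at 109, 122 and 95.9 CPM in mESCs and at 220, 289 and 284 CPM in CPCCs, a log2 rise of 1.28 (SE 0.18, adjusted p = 0.00029, edgeR). Lamc3, another gamma chain, was listed in CPCCs only at 1.99, 0.61 and 2.06 CPM.

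Because counts grow with transcript length, genes were compared with each other only per kb of coding length. Among the alpha chains in mESCs, Lama5 held 42.9% (41.2 to 45%), Lama3 29.5% (26.7 to 32.7%) and Lama1 27.6% (22.3 to 32.1%). In CPCCs Lama1 held 54.8% (45.8 to 60.2%), Lama5 27.0% (20.3 to 38.5%), Lama4 12.4% (8.31 to 15.9%), Lama2 4.69% and Lama3 1.11%. Lama5 thus held a smaller share in every CPCC library although its own level was not called different. Lamb1 and Lamb2 shared the beta chains of mESCs at 48.2% and 50.1%, and Lamb1 held 91.3% in CPCCs (89.7 to 94.3%).

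**Figure D3:**
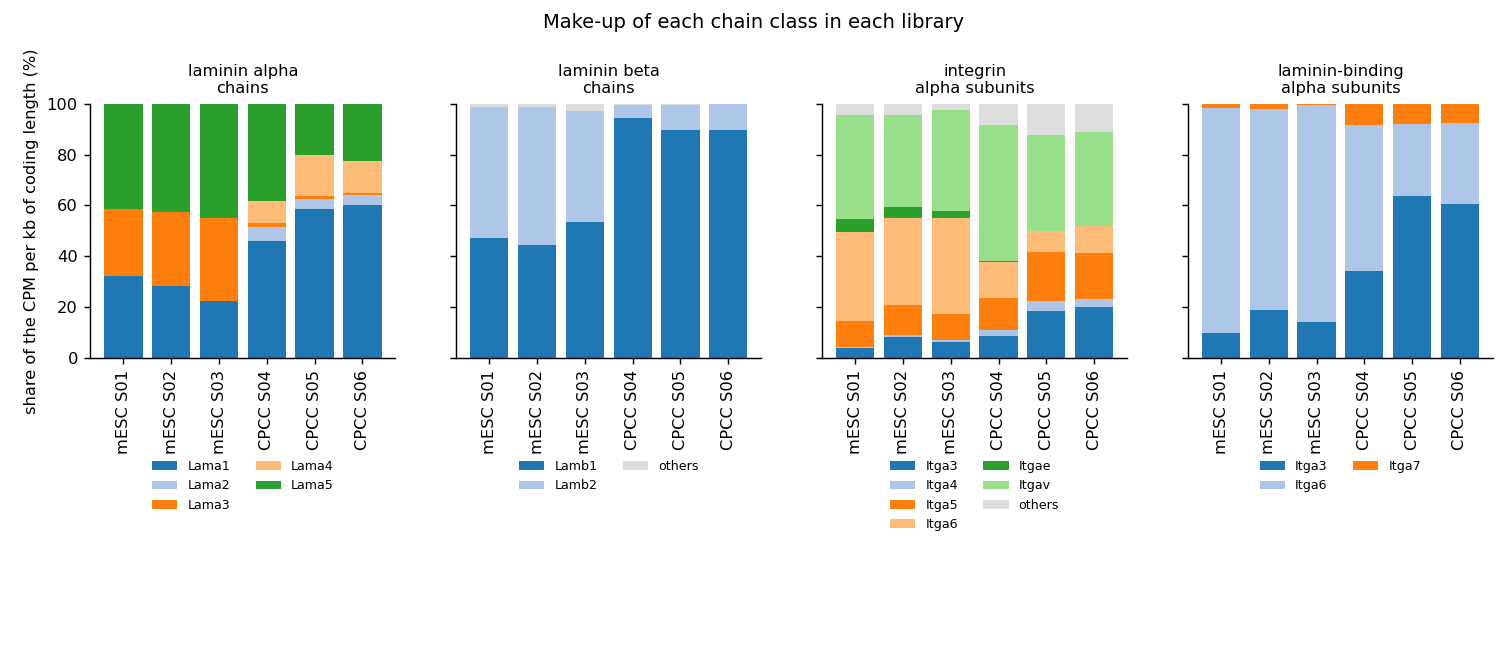
Share of the summed CPM per kb of coding length (%) held by each gene within 4 classes, 1 bar per library, with genes that the mESC table does not list set to 0 and genes under 3% in every library joined as others. Lama3 goes from 29.5% of the laminin alpha chains in mESCs to 1.11% in CPCCs, and Itga6 from 84.4% to 39.3% of the laminin-binding alpha subunits.

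Over all integrin alpha subunits, Itgav and Itga6 came first in mESCs, with 39.1% and 35.7% of the summed level per kb. In CPCCs Itgav held 42.9% (37.1 to 53.7%, overlapping the 36.3 to 40.8% of mESCs), Itga5 16.8%, Itga3 15.7% and Itga6 11% (8.13 to 14.3%). Among the beta subunits, Itgb1 held 85.1% in mESCs (79.6 to 91.0%) and 93.9% in CPCCs (92.1 to 96.5%).

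The receptor subunits and their laminin ligands were set side by side as sums. With genes that the mESC table does not list set to 0 there, the summed level of the 24 integrin subunits, Itgbl1 left out, was 112, 110 and 157 CPM per kb in mESCs and 2326, 1321 and 1119 in CPCCs. The summed level of the 11 laminin genes was 70.3, 73.6 and 72.0 CPM per kb in mESCs and 196, 181 and 167 in CPCCs. In neither sum did the groups overlap, and the means differed 12.6-fold for integrins and 2.52-fold for laminins. The ratio of integrin to laminin level was 1.60, 1.5 and 2.18 in mESCs and 11.9, 7.29 and 6.69 in CPCCs. Itgb1 carried much of this, and without it the ratio was 1.03, 1.02 and 1.26 against 3.68, 2.40 and 2.13, still without overlap.

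Within the receptors, the beta sum was below the alpha sum in mESCs, at a beta to alpha ratio of 0.71, 0.68 and 0.85, and above it in CPCCs, at 2.51, 2.68 and 2.71. With the union of exons as the length the mESC ratio was 1.12, so that order in mESCs turned with the choice of length, while the higher ratio in CPCCs did not. The ratio of the laminin-binding alpha subunits to the laminin alpha chains was 1.92, 2.13 and 2.69 in mESCs, against 9.76, 4.20 and 4.0 in CPCCs. Within the ligands, the laminin beta sum rose 9.62-fold, from a mean of 8.56 to 82.4 CPM per kb, against 1.63-fold for the alpha sum (13.6 to 22.2). With 3 libraries against 3, an exact two-sided permutation test cannot go below p = 0.10, and these sums were not tested.

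**Figure D4:**
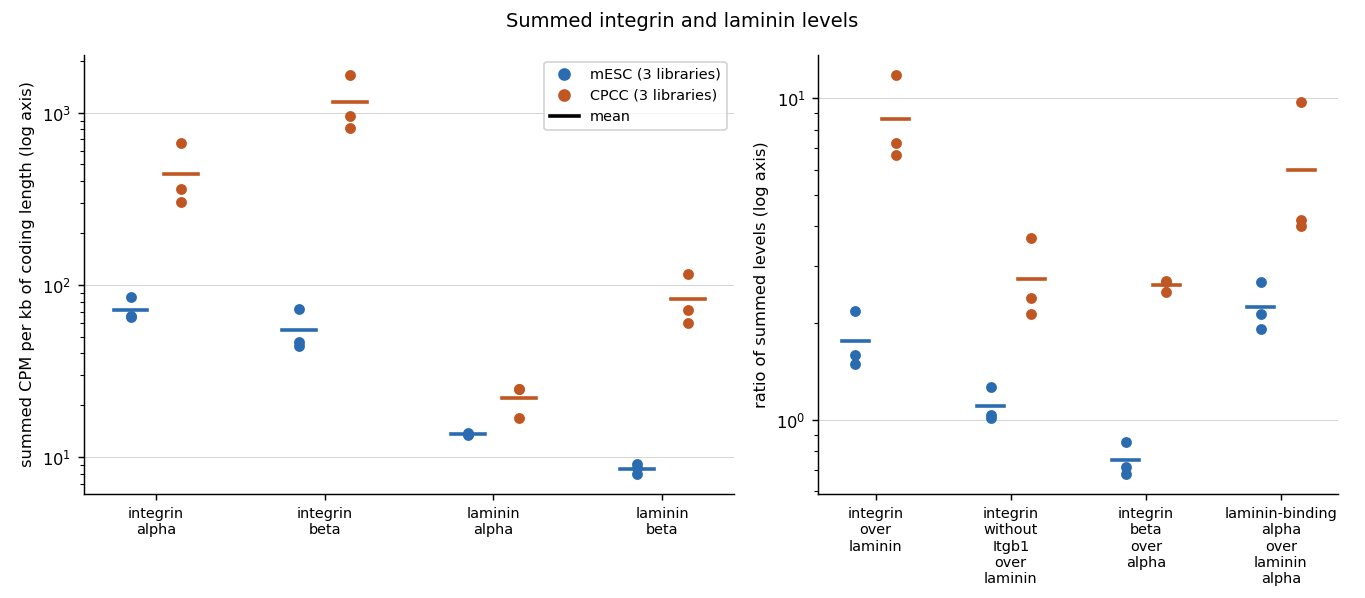
Left, summed CPM per kb of coding length of the integrin alpha and beta subunits and of the laminin alpha and beta chains; right, ratios of such sums; both on log axes, 1 point per library and a line at the mean of 3. The integrin to laminin ratio lies at 1.5 to 2.18 in mESCs and 6.69 to 11.9 in CPCCs, with S04 the highest.

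The laminin genes, of which 4 of 7 tested were called higher and 1 lower, were set beside markers of primitive and parietal endoderm. Such cells secrete laminin in the embryo. Of 8 such markers 6 were listed in both tables, Ttr and Afp were in neither, and the sum was 15.8 to 30.6 CPM in mESCs and 175 to 361 in CPCCs, highest in S04. Most of the CPCC sum was Dab2 (188, 120 and 98.9 CPM) and Thbd (115, 49.8 and 36.3 CPM). Gata6, Foxa2, Dab2 and Thbd were called higher, Sox7 was not called and Sox17 was not tested. Foxa2 was lowest in S04, at 5.96 CPM against 47.1 and 17.0 in S05 and S06. Lamb1, like the marker sum, was highest in S04, and Lama1 and Lamc1 were lowest there among CPCC libraries. The part of endoderm cells in these values was not tested.

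Other genes of the pathway were read from 3 lists. Of 33 cytoplasmic activators and linkers of integrin tails, 29 were tested, 20 were higher and 1 lower, at a median log2 fold change of 1.36. The largest rises were those of Zyx (zyxin of focal adhesions, 6.2), Fermt1 (kindlin-1, an integrin activator, 5.66) and Parva (parvin alpha, 4.93), and the fall was that of Kank2 (-0.73), a binder of talin. Of the 3 binding proteins left out of the members, Itgb1bp1 (0.15, adjusted p = 0.54, edgeR) and Itgb3bp (0.09, adjusted p = 0.89) were not called, and Itgb1bp2, a muscle protein, was listed in CPCCs only at 1.99, 0 and 2.06 CPM.

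Of 21 basement membrane partners and laminin receptors other than integrins, 14 were tested, 8 were higher and 2 lower, and 7 were listed in CPCCs only. Col4a2 (log2 rise 5.50) and Col4a1 (5.10), the chains of the main collagen IV, and Sgce (epsilon-sarcoglycan, 4.80) rose the most. Bcam, the Lutheran receptor of the laminin alpha5 chain, fell by 1.11 on the log2 scale, and Rpsa, a ribosomal protein also described as a laminin receptor, by 0.59. Rpsa has many near-identical copies in the genome, so its counts are uncertain.

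Of 29 integrin ligands other than laminins, 16 were tested, 12 were higher and 2 lower, and 9 were listed in CPCCs only. The other 4 (Vtn, Icam2, Ccn1 and Ccn2) were not found under these symbols and are not analysed here. Fbn1 (fibrillin-1, a log2 rise of 8.04), Fbln5 (fibulin-5, 6.64) and Nov (a CCN protein, 6.12) rose the most, all in the matrix of mesenchymal tissue. The 2 that fell are ligands of leukocyte integrins: Cdh1 (E-cadherin, -2.35), bound by alphaE with beta7, and Icam1 (-1.26), bound by alphaL with beta2. Cdh1 stood at 337, 376 and 589 CPM in mESCs and at 48.5, 53.5 and 154 CPM in CPCCs, and so fell together with Itgae. Over the tested genes of each list, the median log2 fold change was 3.76 for these ligands and 1.48 for the basement membrane partners, beside 0.59 for the laminins. With genes listed in CPCCs only set at their lower bound, these medians were 4.08, 1.96 and 1.5, and that of the integrins 3.10. Over all genes taken the same way, without those listed in mESCs only, the median was 0.29. A gene entered in this way only by being listed in CPCCs and not in mESCs, so these medians lean upward by that choice. They are given as values and are not compared. The integrin median takes in Itgbl1 and also Itgb6, for which no fold is given.

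Some members overlap another annotated gene. Itgav, Itga4, Itga7, Itga8, Itgb4, Lama2, Lama3 and Lamc3 overlap a gene on the opposite strand, and Itga1, Itga10 and Itgam a gene on the same strand. None of these neighbours was listed in the tables. The strand used in counting was not stated and the library kit does not mark it, so reads of such neighbours cannot be told apart from those of the member.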

How the data were processed

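Bulk polyA RNA of 3 mESC and 3 CPCC libraries was measured. The authors deposited 1 table per cell type of estimated counts per gene, not normalized, in which 17.9 to 21.5% of a library's values are not whole. The submitters' processing notes name STAR 2.7 and mm10, and the counter is not given in the sources used here. Each table lists genes with at least 10 counts over its 3 libraries. Columns were assigned to cell types by their table, without replicate numbers. The members and gene lists were chosen with earlier results of these data known.

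Counts were rounded. Genes in both tables (13001) were filtered with filterByExpr, which left 12471, and tested over all of them with edgeR 4.0.16 in R 4.3.3 (quasi-likelihood test, TMM, Benjamini-Hochberg adjusted p under 0.05, no covariates). Standard errors are the log2 fold change over the square root of F. CPM used TMM library sizes. A member listed in 1 table only has a lower bound against 3 counts per library (0.439 to 0.463 CPM in a mESC library), which covers counting error only. Levels per kb used the longest GENCODE M21 coding sequence. A member and its sequence are not reported here. The other members are named, with values in every library where its mean reached 10 CPM in 1 cell type, or 1 CPM when listed in 1 table. Of the other lists, the 3 genes that rose and the 3 that fell the most among those called are named. The fit was tested on simulated data. Alternatives were DESeq2 1.42.0, upper-quartile scaling, library totals, no filter, 10 counts in every library, genes of either table with missing genes at 0 or 3 counts, levels not divided by length, each library left out and, added after seeing the data, the exon union as length.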

Additional observations from a re-analysis of the deposited data

How the results depend on the processing

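Of 289 alternative log2 fold changes of the 23 tested members, 266 kept their direction and their side of the threshold, 9 lost the call, 10 gained it and 4 turned in sign. The changes touched Itga10, Itga6, Itgal, Itgb4, Itgb7, Lama5 and Lamb2, and the cause was not tested. Turned in sign, without ever being called, were Itgal (0.32 without S01, -1.07 to 0.32 over all libraries left out) and Lama5 (0.037 with 10 counts in every library, 0.016 without S03 and 0.053 without S05, -0.127 to 0.053 over all libraries left out). With that filter 7 integrin genes were called higher and 0 lower, since fewer genes could be tested. Itgb7 joined Itgae as lower, making 2, with DESeq2, with genes of either table (missing genes at 0 or 3 counts), with library totals and without S04. With genes of either table, 13 laminin partners and 20 other ligands were called higher under both ways of filling, as genes absent from the mESC table entered, and the median of all genes moved to 0.166 with 0 counts filled in.

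With 1 library left out, integrin genes called lower ranged from 1 to 2, linkers called lower from 1 to 2 (2 without S04) and laminin partners called lower from 1 to 3 (1 without S02). The integrin to laminin ratio ranged from 1.55 to 1.89 in mESCs and from 6.99 to 9.57 in CPCCs, and the beta to alpha ratio from 0.694 to 0.783 and from 2.59 to 2.7. Without dividing by length, the integrin to laminin ratio was 0.925 and 4.08, and the beta to alpha ratio 0.562 and 1.98. Per kb of exon union, the integrin to laminin ratio in mESCs was 1.37, and the beta to alpha ratio 1.12 and 3.69. No paired analysis was possible because the columns carry no replicate numbers. Low counts limit Itgal, Itgb7, Itga10 and the genes near the floor.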
